A study of Mus musculus with 9 samples.

Results

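The genes described here are 33 protein-coding genes that flank *Npas3* on mouse chromosome 12, out of the 55401 genes with a row in the count table. All were listed by symbol for their position, with earlier results of these data already known. They run from *Prkd1* to *Clec14a*, and together with *Npas3* span 7.93 Mb, and a few other protein-coding genes of this interval, such as *Prorp*, are not among them. On either side of *Npas3*, 11 of them lie before its start and 22 lie beyond its end. *Egln3*, the first protein-coding gene beyond *Npas3*, was not counted among the 33 and is given only for comparison. Forebrain tissue of 5 WT (*Npas3*+/+) and 4 HET (*Npas3*+/-) female embryos at embryonic day 16 to 17 was profiled by bulk RNA-seq. HET embryos carried a constitutive deletion of one *Npas3* copy in every cell, on the C57BL/6J background, and WT littermates served as controls. Which part of *Npas3* the targeted allele lacks and which strain the flanking DNA came from are not given in the sources used here, so an effect of the deletion and one of sequence linked to it cannot be told apart. Nothing says how many litters the embryos came from, so p-values measure the spread between these 9 embryos.

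NPAS3 is a transcription factor of the basic helix-loop-helix PAS family, which binds DNA as a partner of ARNT proteins. A targeted deletion can change its neighbours in cis, because genes of one chromosomal neighbourhood can share enhancers and boundaries, and because the targeted allele brings its own flanking sequence. A cis effect in a heterozygote touches one of the 2 copies, so loss of one neighbouring allele would halve a gene's RNA. The question put to these data was whether the RNA level of any neighbour differed between HET and WT forebrain.

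Total counts were between 42640218 and 62830060 per embryo. Although the labels name astrocytes, the source is bulk forebrain. The 8 astrocyte markers summed to between 529.2 and 698.2 CPM (counts scaled to library size), mostly from *Slc1a3*, *Slc1a2*, *Gja1* and *Sox9*, with *Aqp4* at no more than 2.02 CPM, and 6 neuronal markers summed to between 5139 and 6158 CPM. In bulk tissue, fewer cells of a type and less RNA per cell cannot be told apart. RNA of the choroid plexus was unequal, with 8 marker genes summing to between 2356 and 2910 CPM in WT embryos 15, 16 and 41, to 534.6 CPM in HET embryo 24 and to at most 42.8 CPM in the other embryos.

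A stretch of this neighbourhood is repeated in the reference genome, and its members were hard to count. *Srp54a* (chr12:55080262-55115367, GRCm38, plus strand), which encodes the GTPase subunit of the signal recognition particle, has the near-identical copies *Srp54b* and *Srp54c* further along the same strand. *Fam177a* (chr12:55124469-55142104, plus strand) lies between the first pair of these and has the copy *Fam177a2*. The coding sequences of *Srp54a* and *Srp54b*, 1512 bases each, differed at 0 positions, and each differed from *Srp54c* at 6. Coding bases 847 to 966, a window chosen to hold the most of these differences, are shown for the 3 copies from the GENCODE transcripts of GRCm38, 5′ to 3′, with the 3 differing positions of the window in capitals:
Srp54a: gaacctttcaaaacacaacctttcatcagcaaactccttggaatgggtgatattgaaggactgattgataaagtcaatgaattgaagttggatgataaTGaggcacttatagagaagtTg
Srp54b: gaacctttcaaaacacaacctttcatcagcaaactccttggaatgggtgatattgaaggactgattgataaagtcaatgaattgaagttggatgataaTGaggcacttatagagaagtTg
Srp54c: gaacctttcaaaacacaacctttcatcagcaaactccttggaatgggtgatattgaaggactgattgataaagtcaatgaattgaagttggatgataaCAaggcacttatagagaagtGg

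The 621 coding bases of *Fam177a* and *Fam177a2* also differed at 0 positions, and the first 120 of them are shown for the same reason, with no base in capitals because none differs:
Fam177a: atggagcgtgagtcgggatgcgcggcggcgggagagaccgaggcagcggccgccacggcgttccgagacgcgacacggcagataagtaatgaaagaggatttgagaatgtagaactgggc
Fam177a2: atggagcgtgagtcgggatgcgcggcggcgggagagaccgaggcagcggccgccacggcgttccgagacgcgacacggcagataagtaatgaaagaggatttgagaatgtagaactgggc

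Of the 50-base words in the transcripts of each gene, the share also found in another gene was 98.5% for *Fam177a*, 100% for *Fam177a2* and 89.4% for *Srp54b*, and these 3 genes had 0 counts in all 9 embryos. *Srp54a* shared 70.5% of its words and had 383 to 604 counts per embryo. *Srp54c* shared 93.9% and had 843 to 1338. How reads with several alignments were counted is not given in the sources used here. The 0 of *Fam177a* is therefore no statement on its expression, and the level of *Srp54a* is uncertain. *Ppp2r3c*, with 31.0% of its words shared, mostly with *Fam177a2*, is uncertain to a lesser degree. In the other 30 members this share was at most 8.59%, in *Baz1a*.

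Of the 33 members, 28 passed the filter on low counts and were tested. The 5 others were *Fam177a* and 4 genes at the limit of detection, for which 3 counts in a library amount to between 0.0473 and 0.0722 CPM. *Nkx2-9* and *Pax9*, transcription factors of the floor plate and of the pharyngeal endoderm and its derivatives, had at most 1 and 2 counts in an embryo. *Foxa1*, a pioneer factor of endoderm and ventral midbrain, had 7 counts in WT embryo 41 and at most 1 in the other embryos. *Slc25a21*, the mitochondrial carrier of oxodicarboxylates, had 2, 7, 7, 4 and 4 counts in WT embryos 5, 15, 16, 41 and 43 and 3, 0, 2 and 1 in HET embryos 5, 6, 7 and 24. The groups overlapped in all 4 genes. With no filter on low counts, *Slc25a21* had a log2 fold change of −1.59 in edgeR (unadjusted p = 0.0260, adjusted p = 0.784) and was not called. Counts this low allow no firm statement on a difference in these 4 genes.

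Levels are compared between members as CPM per kilobase of exonic length, as a mean over the 9 embryos. *Psma6*, an alpha subunit of the 20S proteasome core, was the most abundant member at 128.0 CPM per kilobase. *Cfl2*, a cofilin that severs actin filaments, followed at 65.3, *Sptssa*, the small activating subunit of serine palmitoyltransferase, at 44.1, and *Snx6*, a sorting nexin of endosome-to-Golgi transport, at 36.0. At the other end were *Mipol1* at 0.791, *Coch*, a secreted matrix protein of the inner ear, at 0.698, and *Clec14a*, a lectin of endothelial cells, at 0.669. The embryos' ranges of 6 of the 27 pairs of neighbours in this order did not overlap. The pairs from *Psma6* to *Cfl2*, *Cfl2* to *Sptssa* and *Snx6* to *Brms1l* were among these 6, whereas *Sptssa* and *Snx6* overlapped, as did every pair from *G2e3*, in sixth place at 15.1, down to *Ppp2r3c* at 7.69.

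The targeted gene itself differed by less than a halving. *Npas3* (chr12:53248677-54072175, plus strand) stood at 40.8, 35.4, 29.7, 38.3 and 37.0 CPM in WT embryos 5, 15, 16, 41 and 43 and at 27.9, 28.2, 34.1 and 27.8 CPM in HET embryos 5, 6, 7 and 24. The 95% interval of its log2 fold change ran from −0.52 to −0.07, which leaves out −1. WT embryo 16 and HET embryo 7 made the groups overlap, and the adjusted p was 0.877 in edgeR's test. How much of the remaining signal comes from the targeted allele cannot be read from counts over the whole gene.

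None of the 28 tested members passed the test, while *Egln3*, which is no member, did. With 0.05 as the limit on the adjusted p of edgeR's quasi-likelihood test, 0 of the 28 tested members differed between HET and WT forebrain, where 0.140% of all 17818 tested genes did (25 genes). At an unadjusted p under 0.05 there were also 0 of 28, against 5.42% of all tested genes, and DESeq2 and limma-voom likewise gave 0 at either threshold. The lowest p of a member was 0.0664 in edgeR, for *Prkd1*, with an adjusted p of 0.911. The members' log2 fold changes lay between −0.25 and 0.23, with a median of −0.03, and the median over all tested genes was −0.005. Their median size was 0.07, against 0.09 over all tested genes, and 24 of the 28 were under 0.15 in size. Of the members, 10 were above 0 and 18 (64.3%) below, where 51.5% of all tested genes were below.

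The intervals say how large a change these 9 embryos could have missed. For 27 of the 28 members the 95% interval of the log2 fold change lay wholly between −1 and 1, and so left out a halving as well as a doubling of total RNA. For 24 of them it lay within a 1.5-fold change in either direction. *Coch*, *Nkx2-1*, *Sstr1* and *Clec14a* had wider intervals, and only that of *Nkx2-1* reached −1. The members were measured somewhat more tightly than other genes, with a median standard error of 0.10 on the log2 scale against 0.12 over all tested genes and a median level of 38.8 CPM against 17.1.

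**Figure D1:**
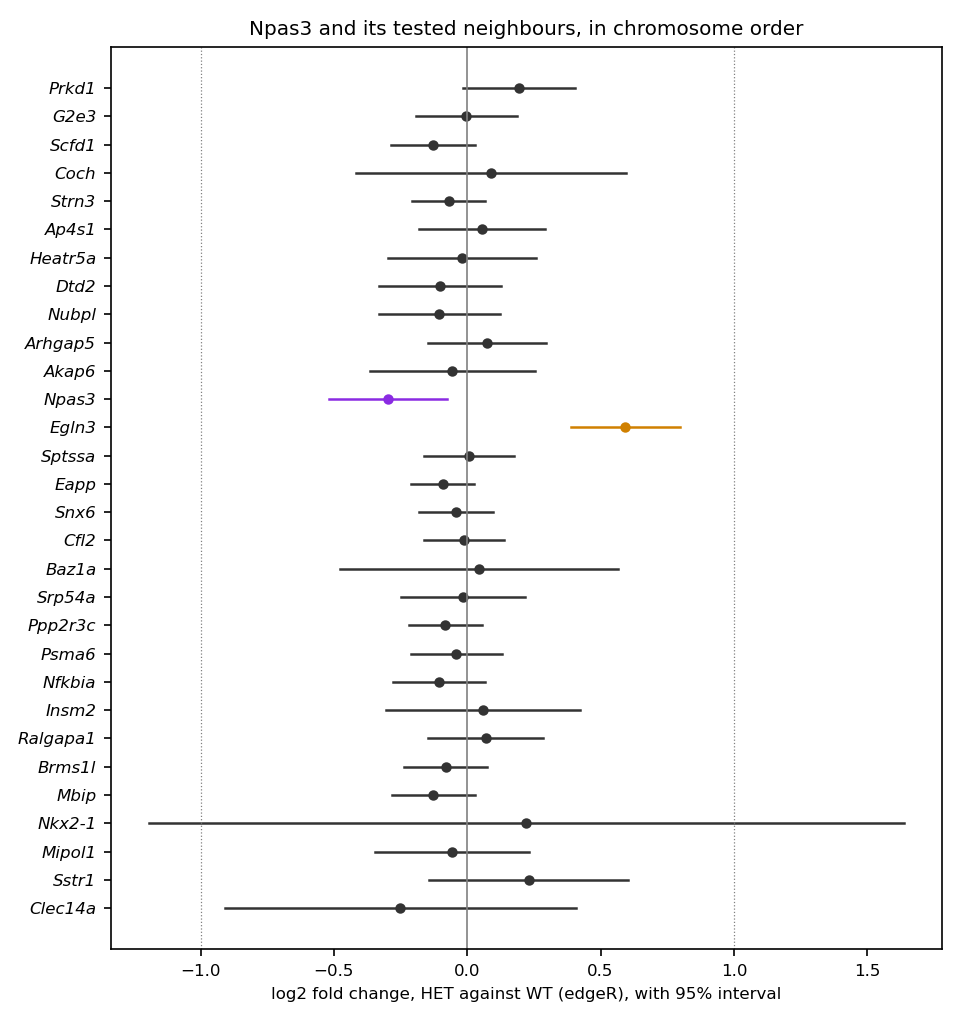
Log2 fold change of HET against WT forebrain from edgeR (horizontal axis) with its 95% interval for the 28 tested members (black), *Npas3* (purple) and *Egln3* (orange), in chromosome order from top to bottom. Every member's interval crosses 0, only that of *Nkx2-1* passes the dotted lines at −1 and 1, and *Egln3* sits at 0.59.

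The closest genes on the 2 sides of *Npas3* gave unlike results. *Egln3*, the HIF prolyl hydroxylase 3 gene, lies on the minus strand, and its nearer end is 106806 bases beyond *Npas3*. It was higher in HET embryos (27.8 to 34.9 CPM) than in WT embryos (18.3 to 23.4 CPM), by 0.59 on the log2 scale (standard error 0.09, adjusted p = 0.0373 in edgeR's test). DESeq2 and limma-voom also called *Egln3*, with an adjusted p of 9.88e-06 and 0.0488. In edgeR the adjusted p was 0.0712 after adding the choroid plexus score to the fit and 0.339 in embryos under 100 CPM of *Ttr*, a choroid plexus gene. It was above 0.05 when any embryo but HET embryo 24 was left out, while the unadjusted p stayed under 0.05 in all 9 of these edgeR fits. *Akap6* (chr12:52699383-53155599, plus strand), whose product anchors protein kinase A at the nuclear envelope, ends 93078 bases before *Npas3*, somewhat nearer than *Egln3*. It was at 118.6, 146.0, 86.0, 136.5 and 132.6 CPM in WT embryos 5, 15, 16, 41 and 43 and at 105.4, 118.3, 139.8 and 113.5 CPM in HET embryos 5, 6, 7 and 24. The groups overlapped throughout. Its log2 fold change was −0.06, with an interval of −0.37 to 0.25. That upper bound lies below the estimate for *Egln3*, whose own interval was 0.39 to 0.80. The same held for the upper bounds of 25 of the 28 members and of 14700 of all 17818 tested genes.

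Beyond *Egln3* the next protein-coding gene is *Sptssa* (chr12:54645392-54656573, minus strand), 573217 bases from *Npas3*. *Sptssa* was at 68.7, 66.5, 76.3, 64.2 and 57.8 CPM in WT embryos 5, 15, 16, 41 and 43, and at 66.6, 70.5, 64.5 and 66.7 CPM in HET embryos 5, 6, 7 and 24. The HET embryos fell inside the WT range, and the log2 fold change was 0.01 (interval −0.16 to 0.18). The 250 bases before the annotated start of *Akap6*, *Egln3* and *Sptssa* are shown from RefSeq on GRCm38.p6. These are the 3 protein-coding genes nearest to *Npas3*, and only *Egln3* differed between the groups. Capitals mark ACGTG on either strand, a form of the core of the hypoxia response element that ARNT-containing dimers bind. The form GCGTG, which the *Sptssa* window holds, was not marked or counted. ACGTG also makes up most of the E-box CACGTG and overlaps it.
Akap6, chr12:52699133-52699382, plus strand: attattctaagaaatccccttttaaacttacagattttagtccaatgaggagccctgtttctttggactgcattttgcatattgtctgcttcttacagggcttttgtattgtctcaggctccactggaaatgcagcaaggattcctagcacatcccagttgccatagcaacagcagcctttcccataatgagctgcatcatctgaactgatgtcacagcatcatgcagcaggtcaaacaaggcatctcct
Egln3, chr12:54203875-54204124, minus strand: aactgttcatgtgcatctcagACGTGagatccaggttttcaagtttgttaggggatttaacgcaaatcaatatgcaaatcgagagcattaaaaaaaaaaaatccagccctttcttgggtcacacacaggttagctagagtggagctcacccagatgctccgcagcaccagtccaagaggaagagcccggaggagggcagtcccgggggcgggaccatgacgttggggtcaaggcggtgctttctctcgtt
Sptssa, chr12:54656573-54656822, minus strand: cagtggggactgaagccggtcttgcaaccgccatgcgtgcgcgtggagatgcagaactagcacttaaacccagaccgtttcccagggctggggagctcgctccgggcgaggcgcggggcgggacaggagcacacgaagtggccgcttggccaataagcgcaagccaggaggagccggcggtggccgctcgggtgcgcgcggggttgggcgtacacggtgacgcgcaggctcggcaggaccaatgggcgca

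The *Egln3* window held 1 ACGTG and those of *Akap6* and *Sptssa* held 0. Of the 33 members, 29 had a promoter entry, and 7 of these 29 (24.1%) held ACGTG in these 250 bases on either strand, against 16.6% of 27025 promoters. CACGTG was in 2 of the 29 (6.90%), in *Cfl2* and *Nubpl*, against 6.05%, and the looser CANNTG in 16 (55.2%), against 66.0%. A match of letters is a description and not a site, and none of the 7 members with ACGTG passed the test.

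The values around *Npas3* are given by distance, as a description with no test. Within 1 Mb of it 10 other genes were tested, with a median log2 fold change of −0.002 and *Egln3* as the 1 called gene. Between 1 and 2 Mb there were 18, with a median of −0.04, and between 2 and 5 Mb there were 20, with a median of 0.001. None of these genes was called. Farther out, where no member lies, the median was −0.06 for the 12 tested genes between 5 and 10 Mb, 0.01 for the 94 between 10 and 20 Mb and 0.002 for the 524 beyond, with 0, 0 and 1 called. The median size of the change was 0.05, 0.07 and 0.09 in the 3 zones that hold members, and 0.07, 0.07 and 0.09 in the others. Between *Prkd1* and *Clec14a*, 102 genes other than the members, *Npas3* and *Egln3* have a row, 52 of them with 0 counts in all embryos. Only 9 were tested, and 0 of the 9 had even an unadjusted p under 0.05 in edgeR. They include *Prorp*, the mitochondrial RNase P nuclease next to *Ppp2r3c*, with a log2 fold change of −0.09.

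**Figure D2:**
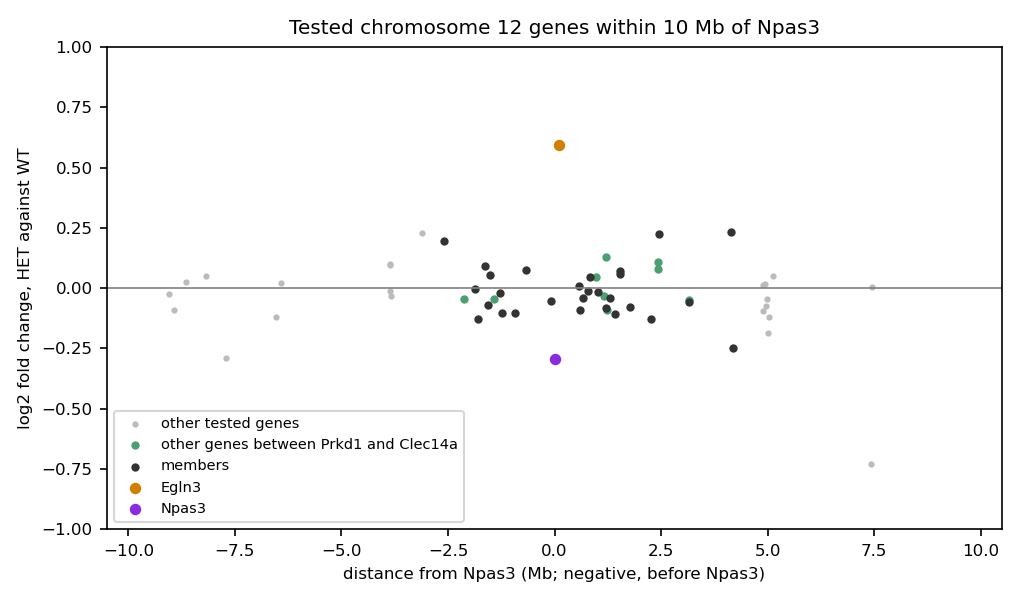
Log2 fold change of HET against WT (vertical axis) against the distance from *Npas3* in Mb (horizontal axis, negative before *Npas3*) for the 61 tested chromosome 12 genes within 10 Mb. Members (black) lie between −0.25 and 0.23 at every distance, while *Egln3* (orange) is at 0.59 and *Npas3* (purple) at −0.30.

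The members are described in the order of their roles. In membrane trafficking and membrane lipids, 6 of 7 members were tested, and 0 passed at either threshold, 2 with positive and 4 with negative log2 fold changes between −0.13 and 0.06. *Scfd1*, the SM protein of ER-to-Golgi SNARE fusion, had the change of greatest size in this group at −0.13 (interval −0.29 to 0.03). It was at 39.0, 43.8, 46.7, 48.3 and 44.7 CPM in WT embryos 5, 15, 16, 41 and 43 and at 43.2, 40.1, 41.2 and 38.5 CPM in HET embryos 5, 6, 7 and 24. WT embryo 5 lay among the HET embryos, and without it the unadjusted p was 0.0207 and the adjusted p 0.386 in edgeR. *Ap4s1*, the sigma subunit of the AP-4 adaptor, was at 11.05 to 14.4 CPM in WT and 11.7 to 14.5 CPM in HET embryos. *Snx6* was at 104.8 to 115.8 CPM in WT and 96.9 to 114.0 CPM in HET embryos. The groups overlapped in both. *Heatr5a*, a HEAT-repeat protein of membrane traffic, was at 30.8 to 49.4 CPM in WT and 37.4 to 46.9 CPM in HET embryos.

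In signalling, scaffolds and GTPase regulation all 10 members were tested, with 0 past either threshold, 4 with positive and 6 with negative log2 fold changes. *Prkd1*, the diacylglycerol-activated protein kinase D1, is the outermost member before *Npas3*, 2.60 Mb away. It was at 32.4, 26.5, 30.5, 27.2 and 32.2 CPM in WT embryos 5, 15, 16, 41 and 43 and at 38.4, 35.4, 29.2 and 33.01 CPM in HET embryos 5, 6, 7 and 24. HET embryo 7 was the single HET embryo below the highest WT embryo, and the log2 fold change was 0.19 (standard error 0.10, interval −0.02 to 0.40). Without HET embryo 7 the unadjusted p was 0.0185, and without WT embryo 5 it was 0.0456, but the adjusted p was 0.999 and 0.488 in these edgeR fits. *Sstr1*, a somatostatin receptor near the far end, had the largest positive value of any member at 0.23 (interval −0.14 to 0.60). *Sstr1* was at 4.52 to 6.98 CPM in WT and 5.09 to 8.31 CPM in HET embryos, which overlapped.

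Other signalling genes lay closer together. *Nfkbia*, which encodes the NF-kappaB inhibitor and is itself induced by NF-kappaB, was at 18.5 to 21.2 CPM in WT and 16.9 to 19.2 CPM in HET embryos. The log2 fold change of this gene was −0.11 (interval −0.28 to 0.07). *Strn3*, a scaffold of PP2A phosphatase complexes, was at 95.4 to 108.3 CPM in WT and 87.6 to 102.2 CPM in HET embryos. *Arhgap5*, a GTPase-activating protein, was at 115.1 to 142.6 CPM in WT and 119.1 to 160.2 CPM in HET embryos. For *Ralgapa1*, a Ral GTPase-activating protein, HET embryos (100.5 to 112.2 CPM) lay within the WT range of 77.7 to 113.4 CPM. *Cfl2* was at 190.1 to 238.3 CPM in WT and 203.2 to 216.8 CPM in HET embryos, *Ppp2r3c*, a regulatory subunit of PP2A, at 44.8 to 51.2 and 41.2 to 45.3 CPM, and *Mipol1* at 6.79 to 8.32 and 5.77 to 8.40 CPM. All of these overlapped.

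In chromatin, cell cycle and protein turnover 7 of 7 members were tested and 0 passed either threshold, with 1 positive and 6 negative log2 fold changes. *Eapp*, an E2F-associated phosphoprotein 598165 bases beyond *Npas3*, was the 1 member of the 28 whose groups did not overlap, as in 1.85% of all tested genes. It was at 61.3, 63.3, 68.7, 62.2 and 61.6 CPM in WT embryos 5, 15, 16, 41 and 43 and at 59.2, 59.5, 59.7 and 59.8 CPM in HET embryos 5, 6, 7 and 24. All HET embryos lay below all WT embryos, but the log2 fold change was −0.09 (interval −0.21 to 0.03, unadjusted p = 0.118 in edgeR). *Mbip*, a subunit of the ATAC acetyltransferase complex, had −0.13 (interval −0.28 to 0.03) and was at 21.04 to 23.7 CPM in WT and 19.6 to 22.3 CPM in HET embryos. *Brms1l*, of the SIN3 deacetylase complex, was at 71.3 to 89.8 CPM in WT and 70.1 to 78.0 CPM in HET embryos. *Psma6* was at 147.2 to 189.7 CPM in WT and 150.4 to 158.6 CPM in HET embryos. *G2e3*, a ubiquitin ligase, was at 109.6 to 124.1 CPM in WT and 103.5 to 135.0 CPM in HET embryos, and *Dtd2*, which edits mischarged transfer RNA, at 6.99 to 8.83 and 6.799 to 7.84 CPM.

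Of the 5 developmental transcription factors only *Nkx2-1* and *Insm2* were tested, and 0 passed either threshold. *Insm2*, a zinc finger factor, was at 4.61 to 8.11 CPM in WT and 5.27 to 6.56 CPM in HET embryos, with a log2 fold change of 0.06 (interval −0.30 to 0.42). Of the extracellular and endothelial pair, *Coch* was at 1.42 to 2.59 CPM in WT and 1.41 to 2.73 CPM in HET embryos, with a log2 fold change of 0.09 (interval −0.42 to 0.60).

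The tested mitochondrial member, *Nubpl*, helps to insert iron-sulphur clusters into complex I. It was at 7.92 to 8.61 CPM in WT and 6.72 to 8.73 CPM in HET embryos. The log2 fold change of this gene was −0.10 (interval −0.33 to 0.12). Of 7 complex I genes whose products carry or contact these clusters, 0 were called, with log2 fold changes between −0.11 and −0.01. Partners and paralogs of the members were examined in the same way from lists of 100 genes, 98 of them tested. Of these 98, 0 were called in either direction, and 2 (2.04%), *Limk1* and *Arid4b*, had an unadjusted p under 0.05 in edgeR, with log2 fold changes of 0.23 and −0.18 and an adjusted p of at least 0.908. The median log2 fold change was −0.04, with 34 of the 98 above 0 and 64 below, where 51.5% of all tested genes were below. Lists for *Npas3* and *Egln3*, which are no members, added 11 tested genes, of which 1 was called, *Npas1*, a paralog of *Npas3* on another chromosome, with a mean of 7.90 CPM (SD 2.16, n = 5) over WT and of 1.78 CPM (SD 0.677, n = 4) over HET embryos (log2 fold change −2.14, adjusted p = 0.0165 in edgeR), and it was not called in the embryos with low *Ttr* or when HET embryo 5, 6 or 7 was left out. *Vhl* was at −0.15, with an unadjusted p of 0.0136 and an adjusted p of 0.879 in edgeR. Among the other subunits of the proteasome alpha ring, the signal recognition particle and the AP-4 complex, the partners of *Psma6*, *Srp54a* and *Ap4s1*, 0 of 15 had an unadjusted p under 0.05. The log2 fold changes of all 15 were below 0.

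**Figure D3:**
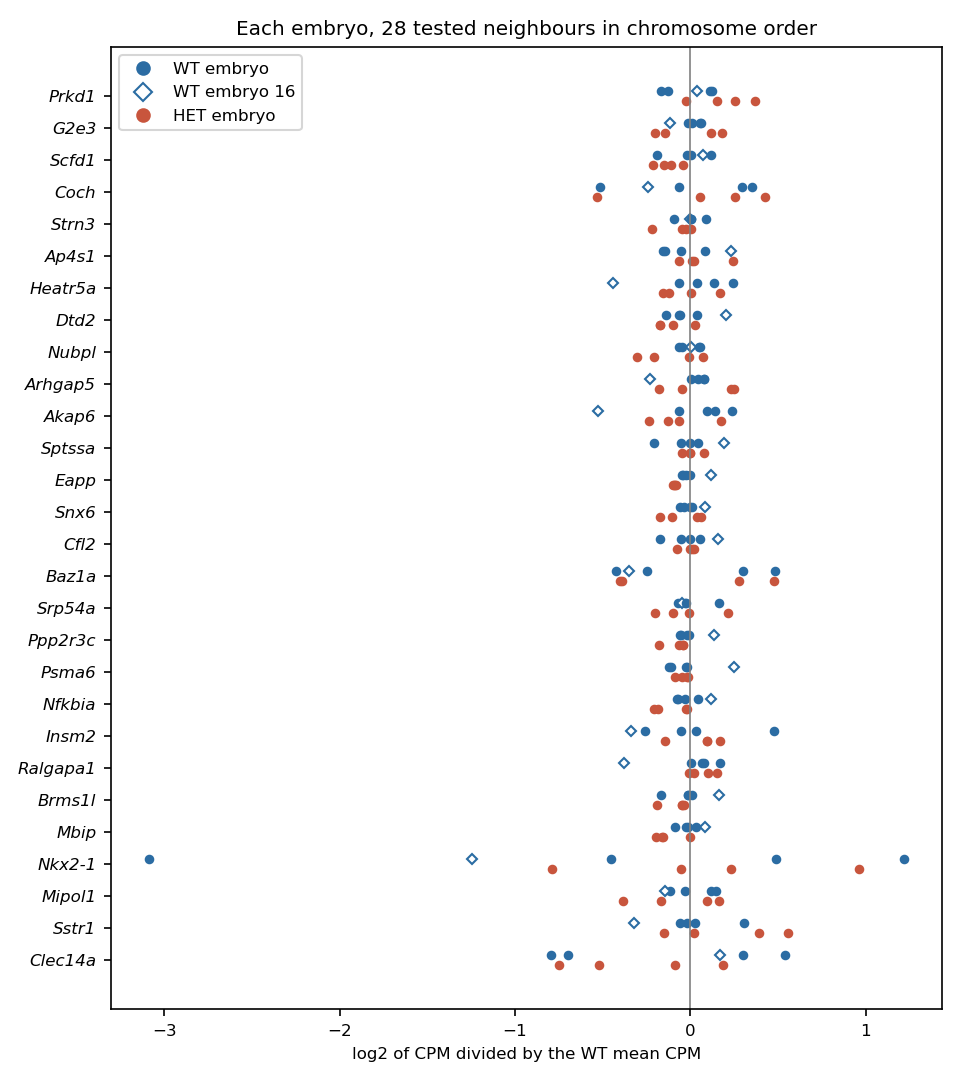
Log2 of CPM divided by the WT mean (horizontal axis) for each of the 28 tested members in chromosome order, with 1 point per embryo (blue WT, red HET, open diamond WT embryo 16). HET and WT points overlap for every member but *Eapp*, WT embryo 16 lies at an edge of many rows, and *Nkx2-1* spreads most.

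Between single embryos the members varied to different degrees. For 20 of the 28 the highest embryo was under 1.5 times the lowest, and for 2, *Nkx2-1* and *Clec14a*, it was over 2 times. WT embryo 16 was the highest of the 9 embryos for 10 members (35.7%) and the lowest for 6 (21.4%). It also stood at an extreme of many other genes, as the highest embryo for 18.6% and the lowest for 20.9% of all tested genes, more than any other embryo. The 10 it led, among them *Psma6*, *Cfl2*, *Sptssa*, *Eapp* and *Brms1l*, had a median exonic length of 3053 bases, and the 6 in which it was lowest, *Heatr5a*, *Arhgap5*, *Akap6*, *Insm2*, *Ralgapa1* and *Sstr1*, had 11601. Of these 6, *Insm2* (2660 bases) and *Sstr1* (2046 bases) were shorter than 3053 bases, and lengths were not compared over all tested genes. HET embryo 24 was the highest for 0 members and the lowest for 6. Without WT embryo 16 the count of members at an unadjusted p under 0.05 was still 0, and the median log2 fold change was still −0.03.

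*Nkx2-1* (chr12:56531958-56536908, minus strand), the transcription factor that specifies the medial ganglionic eminence and its interneurons, ranged 19.8-fold. It was at 24.5, 7.67, 4.44, 14.7 and 1.24 CPM in WT embryos 5, 15, 16, 41 and 43 and at 6.08, 10.2, 20.5 and 12.3 CPM in HET embryos 5, 6, 7 and 24. All HET embryos fell within the WT range, and the log2 fold change of 0.22 had an interval of −1.19 to 1.64. *Sfta3-ps*, a noncoding transcript beyond the end of *Nkx2-1* on the same strand, ranged alike, with 6.69, 2.08, 2.001, 4.30 and 0.265 CPM in the same WT embryos and 1.84, 3.004, 4.28 and 3.82 CPM in the HET embryos. The 5 embryos with the most *Nkx2-1*, which were WT embryos 5 and 41 and HET embryos 6, 7 and 24, also had the most *Lhx8*, a gene of the ventral telencephalon, at 4.36 CPM or more against at most 1.21 CPM. This did not hold for the medial ganglionic eminence markers as a list. In WT embryo 5, where *Nkx2-1* was highest, *Lhx6* (39.01 CPM), *Sst* (8.23), *Npy* (2.43), *Nxph1* (21.8) and *Maf* (20.6) were at their lowest of the 9 embryos. Other markers of the list went the other way there. *Sox6* was at its highest of the 9 embryos (162.6 CPM), and *Gad1* (97.8 CPM) was exceeded only in HET embryo 7 (121.0 CPM). The 8 markers summed to between 261.9 and 375.1 CPM in WT and 309.9 and 398.2 CPM in HET embryos. The 10 hypothalamic markers were low, and their sum followed *Nkx2-1* though most of the single genes did not. Their sum was 6.01 and 4.22 CPM in WT embryos 5 and 41 and 4.22, 5.23 and 3.97 CPM in HET embryos 6, 7 and 24, against at most 3.01 CPM in the other embryos. Among them *Fezf1* was at 1.21 to 2.29 CPM in the same 5 embryos and at most 0.885 CPM in the rest. *Pomc*, *Agrp*, *Hmx2* and *Hmx3* did not separate these 5 embryos from the rest. HET embryo 5, which is not among the 5, had 1.60 CPM of *Pomc* against 1.18 in WT embryo 41. Its *Agrp* was at 0.520 CPM against 0.326 in HET embryo 6. *Otp*, *Rax* and *Avp* stood at no more than 0.065 CPM in any embryo. The 8 markers of striatum and lateral ganglionic eminence also followed *Nkx2-1* in sum. That sum was 353.7 to 421.3 CPM in the same 5 embryos and at most 338.6 CPM in the rest. Among the single genes, *Isl1* separated these embryos, at 16.6 to 34.1 CPM against at most 12.3 CPM, and *Drd2* did so more narrowly. *Drd1*, *Ebf1*, *Foxp1*, *Gsx2*, *Meis2* and *Ppp1r1b* did not separate them. The part of ventral telencephalic or hypothalamic tissue in the range of *Nkx2-1* was not tested.

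*Baz1a* (chr12:54892989-55014348, minus strand), the ACF1 subunit of ISWI chromatin remodelling complexes, fell at 2 levels that crossed the genotypes. It was at 49.7 and 43.8 CPM in WT embryos 5 and 43 and at 26.6, 27.9 and 30.002 CPM in WT embryos 15, 16 and 41. In HET embryos 5, 6, 7 and 24 it was at 49.6, 43.2, 27.0 and 27.2 CPM. The 2 groups thus held both levels, and the log2 fold change was 0.05 (interval −0.48 to 0.57). A list of 12 cell cycle genes, chosen after these values were seen, summed to 2118 and 1926 CPM in WT embryos 5 and 43 and to 2051 and 1847 CPM in HET embryos 5 and 6, which are the 4 embryos with high *Baz1a*. It summed to between 1343 and 1691 CPM in the other 5 embryos. Only 5 of the 12 genes, *Mcm2*, *Mcm3*, *Mcm5*, *Mki67* and *Top2a*, were each higher in all 4 of these embryos than in the other 5, and without the abundant *Mki67* and *Top2a* the sum in WT embryo 16, with low *Baz1a*, was 1078 CPM and exceeded that in HET embryo 6, at 1034 CPM. The 4 embryos with high *Baz1a* also had low choroid plexus RNA, but so did HET embryo 7, in which *Baz1a* was low. The log2 fold change of *Baz1a* became −0.22 in the fit with the choroid plexus score added and −0.23 when only the embryos of low *Ttr* were fitted. *Baz1a* was called in neither fit. The part of cycling cells or of choroid plexus tissue in the 2 levels of *Baz1a* was not tested.

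*Clec14a* (chr12:58264720-58269290, minus strand) was at 1.90, 4.05, 3.70, 4.77 and 2.03 CPM in WT embryos 5, 15, 16, 41 and 43 and at 2.30, 1.96, 3.74 and 3.09 CPM in HET embryos 5, 6, 7 and 24. The 3 WT embryos rich in choroid plexus RNA had 3 of the 4 highest values. Its log2 fold change was −0.25, the most negative of any member, and became 0.19 in the fit with the choroid plexus score added and 0.44 when only the 5 embryos of low *Ttr*, 2 WT and 3 HET, were fitted. The 10 endothelial markers summed to between 144.8 and 185.8 CPM in WT and 136.4 and 150.9 CPM in HET embryos. Their part in the values of *Clec14a* was not tested.

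**Figure D4:**
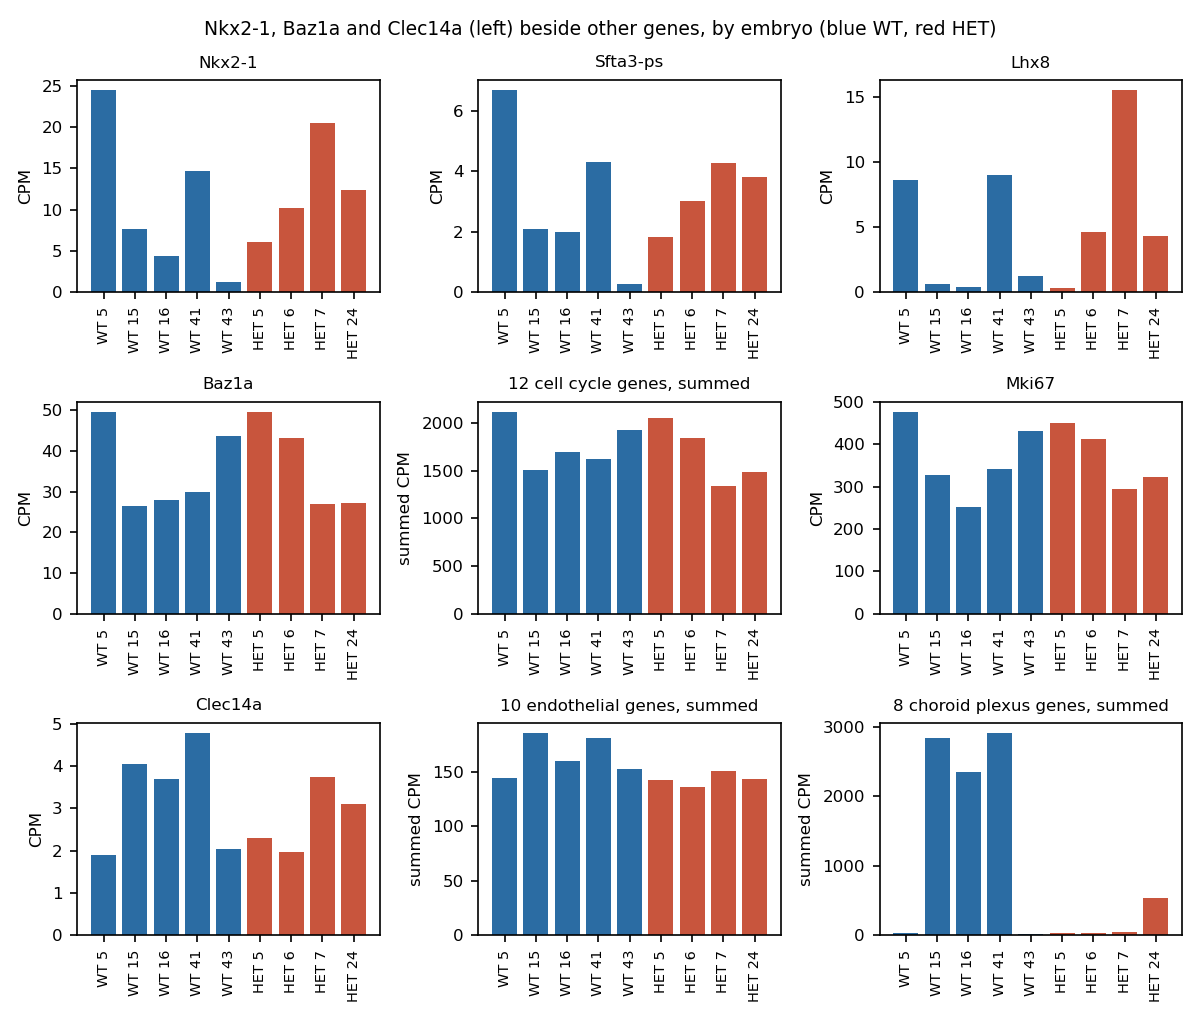
CPM per embryo (vertical axes, from 0) of *Nkx2-1*, *Baz1a* and *Clec14a* in the left column, beside other genes or summed marker lists in the same embryos (blue WT, red HET). *Nkx2-1* is lowest in WT embryo 43 at 1.24 CPM and highest in WT embryo 5 at 24.5, and the high *Baz1a* embryos are 2 WT and 2 HET.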

How the data were processed

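RNA from bulk forebrain was captured by its poly(A) tail, prepared with TruSeq and sequenced on an Illumina HiSeq instrument, but only one read of a pair entered the analysis. The authors mapped them to GRCm38.p6 with STAR 2.7.9a and assigned them to GENCODE M25 genes with featureCounts. The deposited table holds the resulting raw counts, one column per embryo. The strand setting is not given in the sources used here. Genes were filtered with filterByExpr (edgeR 4.0.16, R 4.3.3, minimum count 10), and library sizes were corrected by TMM. The genotype effect was tested with edgeR's quasi-likelihood method, and p-values were adjusted after Benjamini and Hochberg over all 17818 tested genes, with 0.05 as the threshold. The study used DESeq2, run here as an alternative (1.42.0) beside limma-voom (limma 3.58.1). The tests were checked on simulated counts. Intervals are 95% confidence intervals of the log2 fold change between the groups, based on the spread between embryos, and are not ranges of embryo values. PCR duplicates cannot be told apart in these counts, so the limit of 3 counts covers counting error only. Coordinates, exonic lengths and transcript sequences are of GENCODE M21, also on GRCm38, which lists 55141 of the 55401 genes.

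The choroid plexus score is the mean log2 CPM of 8 marker genes, and low *Ttr* means under 100 CPM. Genes named were the members, *Npas3*, *Egln3*, genes of the interval next to them or with an unadjusted p under 0.05, partner genes with such a p, and markers. *Prorp*, *Srp54b*, *Srp54c*, *Fam177a2*, *Sfta3-ps* and the cell cycle genes were added after their values were seen. The members and lists were chosen with earlier results of these data known. Further marker lists, for striatum, thalamus, midbrain and hindbrain, dorsal cortex, blood, meninges, microglia and the oligodendrocyte lineage, had 0 called genes each.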

Additional observations from a re-analysis of the deposited data

Results flagged for a closer look

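In 60 groups of 4 or 5 embryos, for the 28 tested members, *Npas3* and *Egln3*, 8 held a value far from the rest by Dixon's criterion, where chance flags about 1 group in 20, here 3. WT embryo 16 was the distant one in 4 of the 8, with *Arhgap5* at 115.1 CPM against at least 135.3 in the other WT embryos, and *Eapp*, *Ppp2r3c* and *Psma6* at 68.7, 51.2 and 189.7 CPM against at most 63.3, 46.5 and 157.5. *Srp54a* was at 10.8 CPM in WT embryo 43 and at most 9.52 in the other WT embryos. HET embryo 7 had 41.2 CPM of *Ppp2r3c*, against at least 44.7 in the other HET embryos, and 34.1 CPM of *Npas3*, against at most 28.2. HET embryo 24 had 70.1 CPM of *Brms1l*, against at least 77.3.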

How the results depend on the processing

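The count of members called, 0, was the same under all 17 alternatives (other scalings, filters and tools, the choroid plexus covariate, embryos with low *Ttr*, and each embryo left out), and 0 of 476 member values were called. Uncalled values changed sign in 50 of these 476, for 18 members. The number of all genes called was 25 with edgeR and 85 with DESeq2. The count of members at an unadjusted p under 0.05 was 1 without a filter on low counts (*Slc25a21*, adjusted p = 0.784 in edgeR) and 0 to 2 with an embryo left out (2 without WT embryo 5, *Prkd1* and *Scfd1*, and 1 without HET embryo 7). Over all tested genes, such a p was found for 965 of 17818 in the main fit and 1750 of 33242 without the filter. It was found for 1766 of 17721 without WT embryo 5 and 716 of 18031 without HET embryo 7. The count of members whose groups did not overlap was 1 to 3 with an embryo left out (3 without WT embryo 5, 3 without HET embryo 7). The members' median log2 fold change, −0.03, was −0.0515 with the covariate, −0.00783 among embryos with low *Ttr* and −0.0834 to −0.0180 with an embryo left out (−0.0834 without HET embryo 5). Members below 0 were 15 to 21 of 28 across the alternatives. The *Egln3* log2 fold change of 0.59 was 0.60 in DESeq2 and 0.59 in limma-voom, and both called it. In edgeR it lost its call with the covariate (0.52) and among embryos with low *Ttr* (0.57). It was 0.54 to 0.66 with an embryo left out, called only without HET embryo 24. Genes called between *Prkd1* and *Clec14a* were therefore 0 with the covariate and 0 with low *Ttr*, and 0 to 1 with an embryo left out. Called partner genes, with those of *Npas3* and *Egln3* counted in, were 1 (*Npas1*), 0 with low *Ttr* and 0 to 1 with an embryo left out (0 without HET embryo 5, 6 or 7). The cause of these changes was not tested. No paired analysis was possible because the groups share only 1 number in the labels. The number of embryos limits the precision behind the wide intervals of *Nkx2-1* and *Clec14a*, and shared sequence limits *Fam177a* and *Srp54a* at any depth.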
